A study of Mus musculus with 6 samples.

Results

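The proteasome subunit genes were followed on 6 arrays of posterior mouse embryo tissue at embryonic day 9.5. Members were all transcript spots whose gene symbol in the platform annotation was Psma, Psmb, Psmc or Psmd followed by a number, or Psme1 to Psme4. The rule found 47 of the 34967 transcript probes on each array, for 41 of 18507 named genes. By class these were 8 core alpha genes (8 probes), 10 core beta genes (11 probes), 6 regulatory ATPase genes (7 probes), 14 non-ATPase genes (17 probes) and 3 activator genes (4 probes). The groups were Fkbp8 null embryos (samples 6, 9 and 11) and wild-type embryos (samples 7, 10 and 12), all on a mixed background described as C57BL/6 and 129S5/SvEvBrd (B6;129S5), with no other allele or agent named. The embryo was cut just below the forelimb and the hind part was kept, so neural tube was not separated from its neighbouring tissues. Embryos of this stage had 21.6 somite pairs on average, per the labels. Whether each sample came from 1 embryo or a pool is not stated, and p-values here describe the variation among 6 samples, part of which may be technical. The tissue label names posterior and the source label anterior neural tube. The dissection protocol describes the posterior part.

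The proteasome degrades proteins that carry ubiquitin chains. Its barrel-shaped core is a stack of alpha and beta rings: the alpha subunits form the gate and the beta subunits carry the proteolytic sites on Psmb5, Psmb6 and Psmb7. A regulatory particle caps the core. Its ATPase subunits (Psmc genes) unfold the substrate, and some of its non-ATPase subunits (Psmd genes) bind or remove ubiquitin. Interferon induces alternative catalytic subunits, among them Psmb8 and Psmb9, and the activators Psme1 and Psme2. Psmb11 is known from thymic epithelium and Psma8 from male germ cells. FKBP8 is a membrane-anchored immunophilin that has been reported to tether the proteasome to organelle membranes by binding the ATPase encoded by Psmc1.

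Promoters are shown for the catalytic subunits Psmb5 and Psmb6 and the inducible subunits Psmb8 and Psmb9 that can take their places, because Psmb5 and Psmb6 were well above background here while Psmb8 and Psmb9 were not. Those of Psmc1, the reported partner of FKBP8, and Psmd1, the single member whose groups did not overlap, follow. Each is the 250 bases before the RefSeq start in GRCm38.p6, 5′ to 3′, with motif matches on either strand in capitals. The motifs searched were the CCAAT box (CCAAT), the antioxidant response element of NFE2L1 and NFE2L2 (TGACNNNGC), the TATA box (TATAAA) and the interferon-stimulated response element (GAAA, any 2 bases, GAAA). Any overlap between motifs is in capitals as a single run.
Psmb5 promoter, chr14:54617996-54618245 (- strand): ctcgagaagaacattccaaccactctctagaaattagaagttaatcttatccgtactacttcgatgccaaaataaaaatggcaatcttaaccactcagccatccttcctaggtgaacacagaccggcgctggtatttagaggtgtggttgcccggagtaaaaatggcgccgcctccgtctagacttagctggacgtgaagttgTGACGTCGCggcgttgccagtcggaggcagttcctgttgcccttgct
Psmb8 promoter, chr17:34197945-34198194 (+ strand): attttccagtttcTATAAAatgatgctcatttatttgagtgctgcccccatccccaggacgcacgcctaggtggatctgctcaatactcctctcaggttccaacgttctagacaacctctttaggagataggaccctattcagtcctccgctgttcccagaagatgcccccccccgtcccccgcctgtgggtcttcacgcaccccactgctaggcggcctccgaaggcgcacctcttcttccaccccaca
Psmb6 promoter, chr11:70525107-70525356 (+ strand): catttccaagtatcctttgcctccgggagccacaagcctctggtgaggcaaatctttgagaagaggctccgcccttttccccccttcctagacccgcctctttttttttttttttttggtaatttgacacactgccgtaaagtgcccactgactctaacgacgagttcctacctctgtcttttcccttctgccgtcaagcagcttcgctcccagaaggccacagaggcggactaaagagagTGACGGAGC
Psmb9 promoter, chr17:34187331-34187580 (- strand): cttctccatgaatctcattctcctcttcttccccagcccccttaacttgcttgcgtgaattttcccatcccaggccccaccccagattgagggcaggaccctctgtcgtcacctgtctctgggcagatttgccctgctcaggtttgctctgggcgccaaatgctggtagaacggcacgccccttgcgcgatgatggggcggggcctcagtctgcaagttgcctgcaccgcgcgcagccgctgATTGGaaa
Psmc1 promoter, chr12:100109952-100110201 (+ strand): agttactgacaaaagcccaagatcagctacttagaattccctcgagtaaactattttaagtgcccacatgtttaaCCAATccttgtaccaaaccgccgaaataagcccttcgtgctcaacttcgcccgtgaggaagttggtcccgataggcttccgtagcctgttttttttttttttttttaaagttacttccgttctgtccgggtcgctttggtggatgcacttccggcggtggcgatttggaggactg
Psmd1 promoter, chr1:86064369-86064618 (+ strand): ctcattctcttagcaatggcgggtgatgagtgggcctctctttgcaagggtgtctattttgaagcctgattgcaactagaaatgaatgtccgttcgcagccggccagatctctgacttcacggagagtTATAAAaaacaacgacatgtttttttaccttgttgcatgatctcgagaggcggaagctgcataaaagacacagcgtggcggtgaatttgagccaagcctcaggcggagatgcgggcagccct

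Promoters were listed for 34 of the 41 member genes. An antioxidant response element was present in 5 of the 34 (14.7%, against 10.2% of all 32851 promoters of the same length), namely Psmb5, Psmb6, Psmc6, Psmd12 and Psmd9. A CCAAT box was present in 14 (41.2%, against 33.8% of all), a TATA box in 4 (11.8%, against 12.4%) and an interferon-stimulated element in 3, namely Psmb3, Psmd4 and Psmd9 (8.82%, against 2.98%). The median GC content was 57.4% in member promoters and 52.4% in all promoters, and the median number of CpG dinucleotides was 14.5 in member promoters and 6 in all promoters. These are descriptions of letters, not of binding. In the RefSeq annotation the member genes lie on 16 chromosomes. Psmb5 and Psmb11 are direct neighbours, Psmb9 and Psmb8 flank the peptide transporter gene Tap1, and Emc9 lies between Psme1 and Psme2.

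On each array 63.3% to 69.2% of the transcript probes were above background, and the negative control spots had median intensities of 18.5 to 22.8. The number of arrays limits the precision. Fkbp8 itself had background-subtracted intensities of 24.7, 28.9 and 35.7 in null samples 6, 9 and 11, all flagged near background, and 123, 183 and 486 in wild-type samples 7, 10 and 12. It was at least 3.33-fold lower in the null arrays, against the lowest signal above background (limma log2 difference -1.77 ± 0.23 (SE), adjusted p = 0.392). The log2 difference was -2.89 when no offset was added to the intensities. All 5 neural tube markers, all 4 tail bud markers and all 5 somite markers were above background on every array. Of 4 anterior brain markers, Otx2 was near background on every array, while Fezf2 and Six3 were above it on every array. Six3 had intensities of 656, 947.5 and 826 in null samples 6, 9 and 11, and 717, 993 and 1226 in the wild-type samples. Its spot in null sample 11 was flagged and dropped from the fit. Emx2 was above background on all arrays but wild-type sample 10, where its spot was dropped. Wild-type sample 10 stood apart: it had an Xist intensity of 1194 and a Y-linked Eif2s3y intensity of 21.3, while the other 5 arrays had 14.0 to 38.3 for Xist and 272 to 578 for Eif2s3y. Its tail bud markers averaged 1.26 below their mean over the arrays on the log2 scale.

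The proteasome genes were abundant enough to be measured in both genotypes and did not pass the test for a difference between them. Of the 41 genes, 37 had a probe above background on all 6 arrays. A probe was tested if it was above background on all arrays of at least 1 group, which 41 probes for 38 genes did; 1 of them, for Psma8, passed through the wild-type group only. None of the 41 had a limma adjusted p under 0.05 and none an unadjusted p under 0.05, where 0.00471% and 3.08% of all 21243 probes tested did (1.75% at the unadjusted threshold with a higher mean in null and 1.33% with a lower one). The 38 genes, each on its brightest probe, were split evenly, 19 with a higher and 19 with a lower mean in the null arrays, and their median log2 difference was -0.01; over all probes tested 50.8% were higher and the median was 0.0022. Leaving out Psma8 gave 19 higher and 18 lower. The split of the 38 genes moved with the scaling. It was 23 higher and 15 lower with median scaling, where 52.2% of all probes were higher. With cyclic loess it was 12 higher and 26 lower (48.2% of all higher). It was 25 higher and 13 lower with the scanner software's normalized intensity (54.2% of all higher) or the authors' value table (53.6%). It also moved with the arrays used. Without null sample 9 it was 11 higher and 27 lower (51.4% of all higher). Without wild-type sample 7, where Psmd4 was not tested, it was 13 higher and 24 lower (48.3% of all higher). For all 38 genes the difference between the group means was smaller than the larger of the 2 group standard deviations, which held for 81.4% of all probes tested. Without wild-type sample 10, no member passed the adjusted threshold. There 1 (Psmd12) had an unadjusted limma p under 0.05, where 6.3% of all probes did. In that setting 20 genes were higher and 18 lower, and 47.9% of all probes were higher.

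The intervals show how large a difference these arrays leave room for. The 95% interval of the log2 difference lay within -1 and 1, that is within a 2-fold change either way, for 40 of the 41 member probes (98.5% of all probes tested), the exception being Psmb7. It lay within -0.5 and 0.5 for 31 of 41 (79.4% of all). The median standard error was 0.13 for the member probes and 0.12 for all probes tested. In bulk tissue of this kind, fewer cells of a type and less RNA per cell cannot be told apart.

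**Figure D1:**
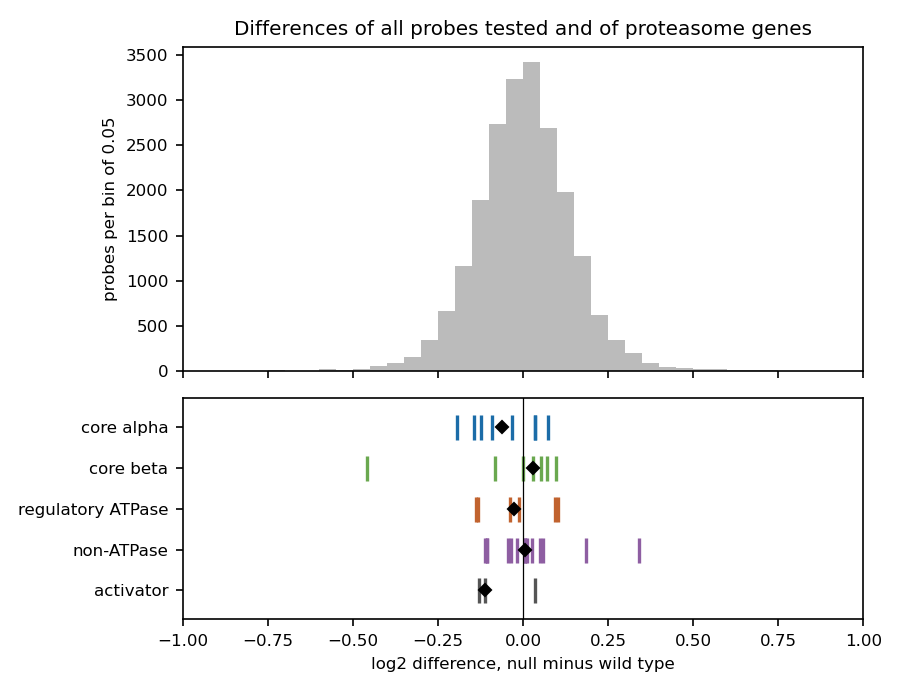
Log2 differences, null minus wild type. The upper panel counts all probes tested in bins of 0.05 (16 probes beyond a difference of 1 lie outside the axis), and the lower panel marks each of 38 proteasome genes by class, with a diamond at the class median. The members lie between -0.46 and 0.34, on either side of 0 in every class. Psma8, which passed the filter through the wild-type group only, is among them.

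**Figure D2:**
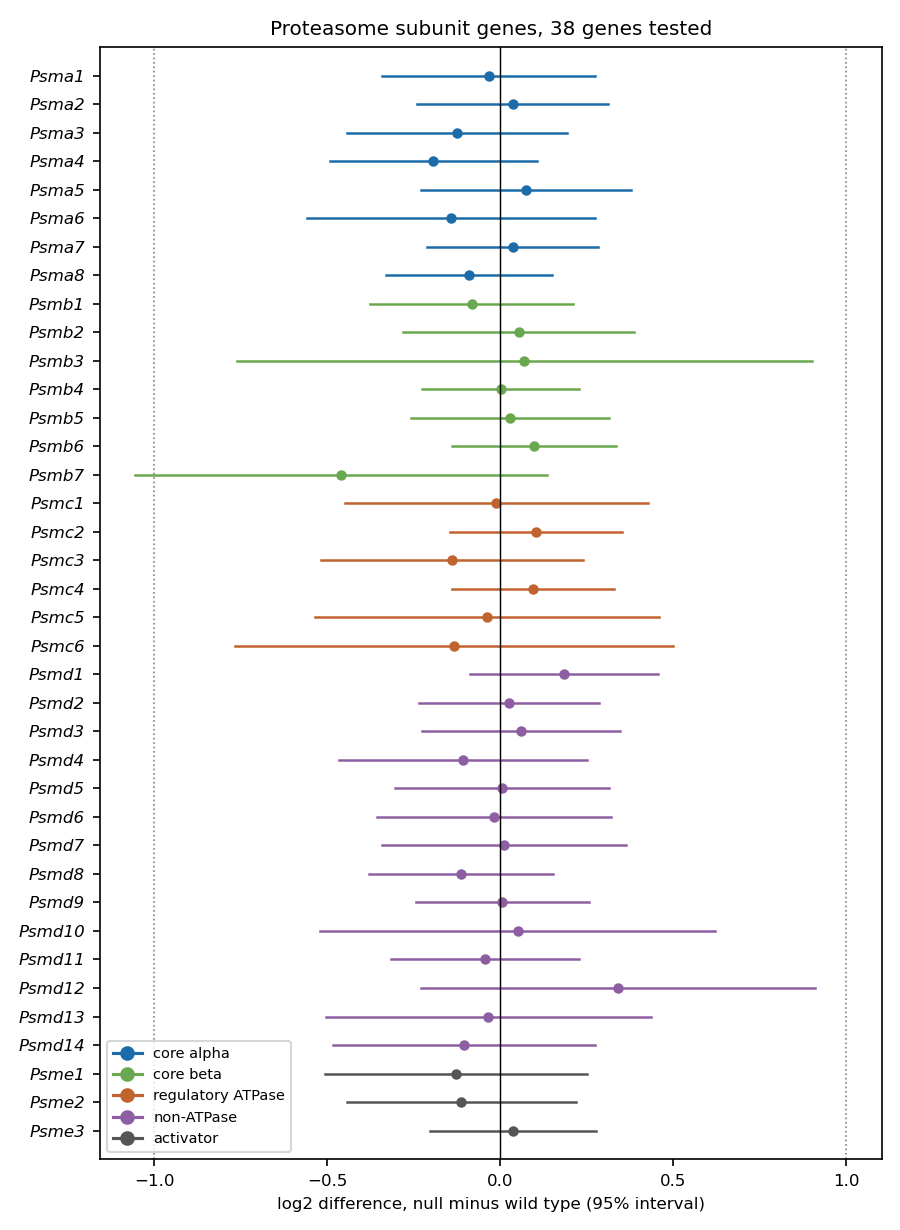
Log2 difference of each tested proteasome gene on its brightest probe (point) with its 95% interval from limma (line), coloured by class. Dotted lines mark a log2 difference of -1 and 1. Every interval includes 0, and only that of Psmb7 reaches beyond -1. Psma8 is included although it passed the filter through the wild-type group only.

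The alpha ring genes, which build the outer rings and gate of the core, had a median log2 difference of -0.03 over 7 genes, with 3 higher and 4 lower. With Psma8, which passed the filter through the wild-type group only, the median was -0.06 and 5 of 8 were lower. The alpha gene with the smallest p was Psma4, with normalized log2 signals of 11.77, 11.57 and 11.54 in null samples 6, 9 and 11, and 11.67, 12.06 and 11.74 in wild-type samples 7, 10 and 12. Wild-type sample 10 was the highest of the 6 and the groups overlapped. The log2 difference was -0.19 ± 0.13 (SE; 95% interval -0.49 to 0.10; limma adjusted p = 0.9999), and it was -0.07 without wild-type sample 10. Psma3 had 12.53, 12.80 and 12.39 in the null arrays and 12.53, 12.87 and 12.70 in the wild-type arrays. Its difference was -0.13 ± 0.14 (95% interval -0.44 to 0.19), with null sample 11 the lowest. The remaining ubiquitous alpha genes ranged from -0.14 for Psma6, which was low in null sample 6 (10.74, against 11.20 to 11.47 on the other 5 arrays), to 0.07 for Psma5. Psma1 had -0.03, Psma2 0.04 and Psma7 0.04. The 95% interval of Psma7 was -0.21 to 0.28.

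The beta ring genes that form the standard core had a median log2 difference of 0.03, with 5 of 7 tested higher and 2 lower. Psmb7, which encodes the subunit with trypsin-like activity, had the most negative difference of all members. Its log2 signals were 10.83, 11.18 and 10.70 in null samples 6, 9 and 11, and 10.92, 11.19 and 11.98 in wild-type samples 7, 10 and 12. Wild-type sample 12 was high and the other 5 arrays lay within 10.70 and 11.19, so the groups overlapped. The log2 difference was -0.46 ± 0.26 (SE; 95% interval -1.06 to 0.14; limma adjusted p = 0.9999). It moved to -0.15 without wild-type sample 12, to -0.68 without wild-type sample 7 and lay between -0.36 and -0.60 without any of the others. Without sample 7 its unadjusted limma p was under 0.05, as it was for 3.37% of all probes tested.

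The other catalytic subunits of the standard core were close between the genotypes. Psmb5, with chymotrypsin-like activity, had log2 signals of 12.30, 12.43 and 12.22 in the null arrays and 12.09, 12.30 and 12.48 in the wild-type arrays. The difference was 0.03 ± 0.12 (SE), with a 95% interval of -0.26 to 0.31. Psmb6, with caspase-like activity, had 13.15, 13.23 and 13.24 in the null arrays and 13.24, 12.97 and 13.12 in the wild-type arrays. The difference was 0.10 ± 0.10 (95% interval -0.14 to 0.33; limma adjusted p = 0.9999). Among the structural beta subunits, Psmb1 had -0.08 and Psmb2 0.05. Psmb4 gave near-equal group means on both its probes, 12.55 ± 0.01 in null and 12.55 ± 0.12 in wild type (SD, n = 3 each) on the brighter and 8.04 ± 0.15 in null and 8.05 ± 0.13 in wild type on the dimmer. Psmb3 varied most of all members, with 10.20, 10.36 and 10.89 in the null arrays and 10.41, 11.21 and 9.62 in the wild-type arrays. The wild-type arrays held both its highest and its lowest value. Its difference of 0.07 ± 0.36 had a 95% interval of -0.76 to 0.90, and leaving out wild-type sample 12 gave -0.33 while leaving out wild-type sample 10 gave 0.47.

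The inducible and tissue-restricted core subunits were at or near background. Psmb8 had background-subtracted intensities of 24.6, 33.2 and 37.6 in null samples 6, 9 and 11, and 28.2, 7.28 and 24.7 in wild-type samples 7, 10 and 12. Null sample 11 alone was above the near-background flag. Psmb9 had 18.1, 20.2 and 18.3 in the null arrays and 26.1, 18.3 and 13.9 in the wild-type arrays, and Psmb11 had 20.7, 15.9 and 19.7 in the null arrays and 29.1, 22.2 and 12.1 in the wild-type arrays. Both were near background on all 6 arrays, and none of these 3 genes was tested or given a fold. Psma8 was just above the flag on 2 of 3 null arrays, with 41.6 and 37.9 in samples 6 and 9 and 28.8 in sample 11, and on all wild-type arrays, with 38.4, 44.1 and 48.7. It entered the fit through the wild-type arrays only, so its difference is not given in the text. The figures, the counts over 38 genes and the counts of highest and lowest arrays include it. No difference between genotypes is read from it. The sequences of Psmb5 and Psmb8 above thus belong to a subunit measured on every array and to its inducible counterpart, measured on 1.

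Genes that accompany the inducible subunits were given beside them from a list of interferon response and antigen processing. Of its 9 genes on the array, 4 were near background on all 6 arrays: Tap1, which lies between Psmb9 and Psmb8, its partner Tap2, H2-K1 and Irf7. Of 4 tested, 1 was higher and 3 lower, with a median log2 difference of -0.11. H2-D1, a class I histocompatibility gene, had -0.24 ± 0.09 (SE; limma unadjusted p = 0.0321, adjusted p = 0.9999). The coactivator gene Nlrc5 had -0.09 ± 0.09, the transcription factor gene Irf1 -0.12 ± 0.11 and the ubiquitin-like modifier gene Isg15 0.06 ± 0.10. The groups did not overlap for H2-D1 and Nlrc5, both with null below (they did not overlap for 9.28% of all probes tested). Of 8 leukocyte markers on the array, 1 (Laptm5) was tested and 2 were near background on every array, among them the pan-leukocyte marker Ptprc with 8.68, 12.0 and 14.1 in the null arrays and 14.3, 20.8 and 15.6 in the wild-type arrays. The summed intensity of the 8, not normalized between arrays, was 257 to 277 in the null arrays and 228 to 241 in the wild-type arrays. Most of that sum came from probes too close to background to be tested, so no leukocyte difference is read from it. It also held a Tyrobp spot of wild-type sample 10 that was dropped from the fit. Laptm5, the 1 marker tested, had a log2 difference of 0.02 ± 0.12 (SE).

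**Figure D3:**
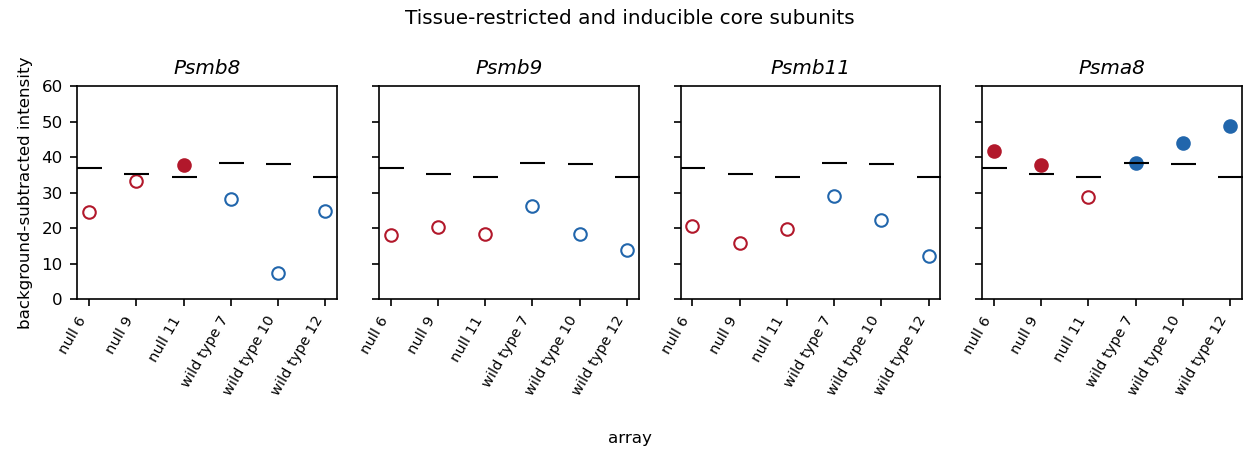
Background-subtracted intensity of Psmb8, Psmb9, Psmb11 and Psma8 on each array, null in red and wild type in blue. Open circles are spots flagged near background, and the dash marks the 95th percentile of that array's negative control spots; Psmb9 and Psmb11 lie below it on every array.

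The regulatory ATPase genes had a median log2 difference of -0.03, with 2 of 6 higher and 4 lower. Psmc1, whose product is the reported partner of FKBP8, had log2 signals of 11.15, 11.22 and 10.63 in null samples 6, 9 and 11, and 10.75, 10.99 and 11.30 in wild-type samples 7, 10 and 12. Null sample 11 was the lowest and wild-type sample 12 the highest, with the other arrays of both genotypes mixed between them. The group means were 11.00 ± 0.32 in null and 11.01 ± 0.28 in wild type (SD, n = 3 each). The log2 difference was -0.01 ± 0.19 (SE; 95% interval -0.45 to 0.43; limma adjusted p = 0.9999), and its sign changed with the setting: leaving out null sample 11 gave 0.17, leaving out wild-type sample 12 gave 0.13 and leaving out wild-type sample 7 gave -0.14. With median scaling, the authors' value table or the software's own normalization it was also positive.

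The ATPase genes with the smallest p were Psmc2 and Psmc4. Psmc2 had 12.20, 12.40 and 12.35 in the null arrays and 12.33, 12.23 and 12.08 in the wild-type arrays, a log2 difference of 0.10 ± 0.11 (SE; 95% interval -0.15 to 0.35; limma adjusted p = 0.9999). Psmc4 had 11.93, 12.17 and 12.03 in the null arrays and 11.98, 11.99 and 11.88 in the wild-type arrays, a difference of 0.09 ± 0.10 (95% interval -0.14 to 0.33). In both genes the groups overlapped. A second Psmc4 probe was near background on all arrays. Psmc3 had -0.14 ± 0.17, Psmc5 -0.04 ± 0.22 and Psmc6 -0.13 ± 0.28. Psmc5 and Psmc6 were spread widely within both groups, Psmc5 by 0.29 in null and 0.40 in wild type and Psmc6 by 0.43 in null and 0.49 in wild type (SD, n = 3 each).

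The non-ATPase genes encode the scaffold, the ubiquitin receptors, the lid and the base assembly chaperones. Their median log2 difference was 0.01, with 8 of 14 higher and 6 lower. Psmd1, a large scaffold subunit of the base, was the single tested member whose groups did not overlap, with null above. Over all probes tested, 4.93% had null wholly above and 4.35% wholly below wild type. Its log2 signals were 13.48, 13.36 and 13.38 in null samples 6, 9 and 11, and 13.35, 13.31 and 13.00 in wild-type samples 7, 10 and 12. The lowest null value, 13.36, was just above the highest wild-type value, 13.35, and wild-type sample 12 lay apart below. The log2 difference was 0.18 ± 0.12 (SE; 95% interval -0.09 to 0.46; limma adjusted p = 0.9999), and 0.07 without wild-type sample 12. The other large scaffold subunit, Psmd2, had 0.03 ± 0.11. The ubiquitin receptor gene Psmd4 had 11.57, 11.80 and 11.87 in the null arrays and 11.68 and 12.03 in wild-type samples 7 and 12. Its spot in wild-type sample 10 was flagged contaminated and left out, and the difference was -0.11 ± 0.15.

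Psmd12, a lid subunit, had the most positive difference of all members on its brighter probe. Its log2 signals were 10.69, 10.88 and 11.25 in null samples 6, 9 and 11, and 10.54, 11.13 and 10.13 in wild-type samples 7, 10 and 12. Wild-type sample 10 lay above 2 of the 3 null arrays. The log2 difference was 0.34 ± 0.25 (SE; 95% interval -0.23 to 0.91; limma adjusted p = 0.9999), leaving out wild-type sample 12 gave 0.11 and leaving out wild-type sample 10 gave 0.60, and the dimmer probe of the gene gave -0.08 ± 0.10. Without sample 10 its unadjusted limma p was under 0.05, as it was for 6.3% of all probes tested. The remaining lid genes lay between -0.11 and 0.06. Among them Psmd14, the deubiquitinase of the lid, had -0.11 ± 0.16, Psmd8 -0.11 ± 0.12, Psmd11 -0.04 ± 0.12, Psmd13 -0.03 ± 0.20, Psmd6 -0.02 ± 0.15, Psmd7 0.01 ± 0.15 and Psmd3 0.06 ± 0.12. Psmd7 and Psmd13 were closer among the null arrays (SD 0.02 and 0.18) than among the wild-type arrays (SD 0.32 and 0.43), where sample 12 was high for both. Of the other 2 Psmd11 probes, 1 was near background on every array and 1 was above it on 3.

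The base assembly chaperones, which bind the ATPases during assembly and leave the finished particle, had log2 differences close to 0. Psmd5 and Psmd9 had standard errors of 0.13 and 0.11, with 95% intervals of -0.30 to 0.31 and -0.24 to 0.26. Psmd10 encodes gankyrin, an ankyrin-repeat protein, and is the single member on the X chromosome. Its log2 signals were 8.88, 9.37 and 9.40 in null samples 6, 9 and 11, and 8.94, 9.74 and 8.82 in wild-type samples 7, 10 and 12. Sample 10, the array with high Xist, was the highest of the 6. The difference was 0.05 ± 0.25 (SE) over all arrays and 0.34 without sample 10. The autosomal genes Psmb3 and Psmc6 were also highest in sample 10, and the part of sex in these values was not tested.

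The activator genes had a median log2 difference of -0.11, with 1 of 3 higher and 2 lower. The median was 0.0369 without null sample 6 and 0.0225 when wild-type sample 12 was left out, so its direction rests on those arrays. Psme1 and Psme2 encode the partner subunits of the interferon-inducible activator ring. Psme1 had log2 signals of 10.87, 10.98 and 10.57 in null samples 6, 9 and 11, and 10.88, 10.69 and 11.24 in wild-type samples 7, 10 and 12. The difference was -0.13 ± 0.16 (SE; 95% interval -0.51 to 0.25; limma adjusted p = 0.9999), a dimmer probe gave -0.02 ± 0.12, and the brighter gave 0.0225 when wild-type sample 12 was left out. Psme2 had 8.10, 8.53 and 8.58 in the null arrays and 8.38, 8.56 and 8.62 in the wild-type arrays, with a difference of -0.11 ± 0.14 (95% interval -0.44 to 0.22) and 0.0369 when null sample 6 was left out. Null sample 6 was the lowest for Psme2 and wild-type sample 12 the highest for both genes, and the groups overlapped in each. Psme3, which encodes the nuclear activator, had 9.29, 9.57 and 9.41 in the null arrays and 9.34, 9.42 and 9.42 in the wild-type arrays, a difference of 0.04 ± 0.10. Unlike Psmb8 and Psmb9, all 3 activator genes were above background on every array.

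For every tested member gene the arrays of at least 1 genotype spread more widely (SD) than the genotype means differed. The median span over the 6 arrays was 0.47 on the log2 scale for the 38 genes and 0.39 for all probes tested. The median standard deviation was 0.15 within the null group and 0.20 within the wild-type group for members, and for all probes tested it was 0.12 in null and 0.14 in wild type. A usable value on all 6 arrays was held by 37 genes, which are all those tested except Psmd4, with Psma8 among them. Of these 37, 13 were highest in wild-type sample 10 and 13 in wild-type sample 12. The shares over the 20080 tested probes with 6 usable values were 17.9% and 18.6%. Null sample 11 held the lowest value of 11 of the 37 (29.7%, against 13.9% of those probes). Psma8, near background there, is among these 11. Null sample 9 held the lowest value of none, against 15.3% of those probes.

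The arrays with the highest values differed between genes, without a clean division between parts of the complex. Wild-type sample 10 was the highest array for 8 of 15 core genes, Psma8 included, and 5 of 19 Psmc and Psmd genes. Wild-type sample 12 was the highest for 4 core genes and 7 Psmc and Psmd genes. Those 19 include the base assembly chaperones. The alpha class median was 0.18 above its mean in sample 10 and -0.02 in sample 12, while the ATPase class median was -0.01 in sample 10 and 0.09 in sample 12. The core beta median was 0.06 in sample 10 and -0.04 in sample 12, and the non-ATPase median was 0.01 and 0.08. Within the core, the 3 catalytic genes Psmb5, Psmb6 and Psmb7 went the other way, with a median of -0.01 in sample 10 and 0.18 in sample 12. Psmb2, Psmb3 and Psmd10 had their highest value in sample 10 and their lowest in sample 12. Psmd7, Psmd11 and Psmd13 had the reverse. In the null group, sample 9 had the highest median in each of the 5 classes, from 0.03 for core beta to 0.18 for the ATPases. The class medians of the null arrays lay between -0.13 and 0.18 and those of the wild-type arrays between -0.13 and 0.18, so that they covered the same range. These groupings were read from the same values and carry no test.

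**Figure D4:**
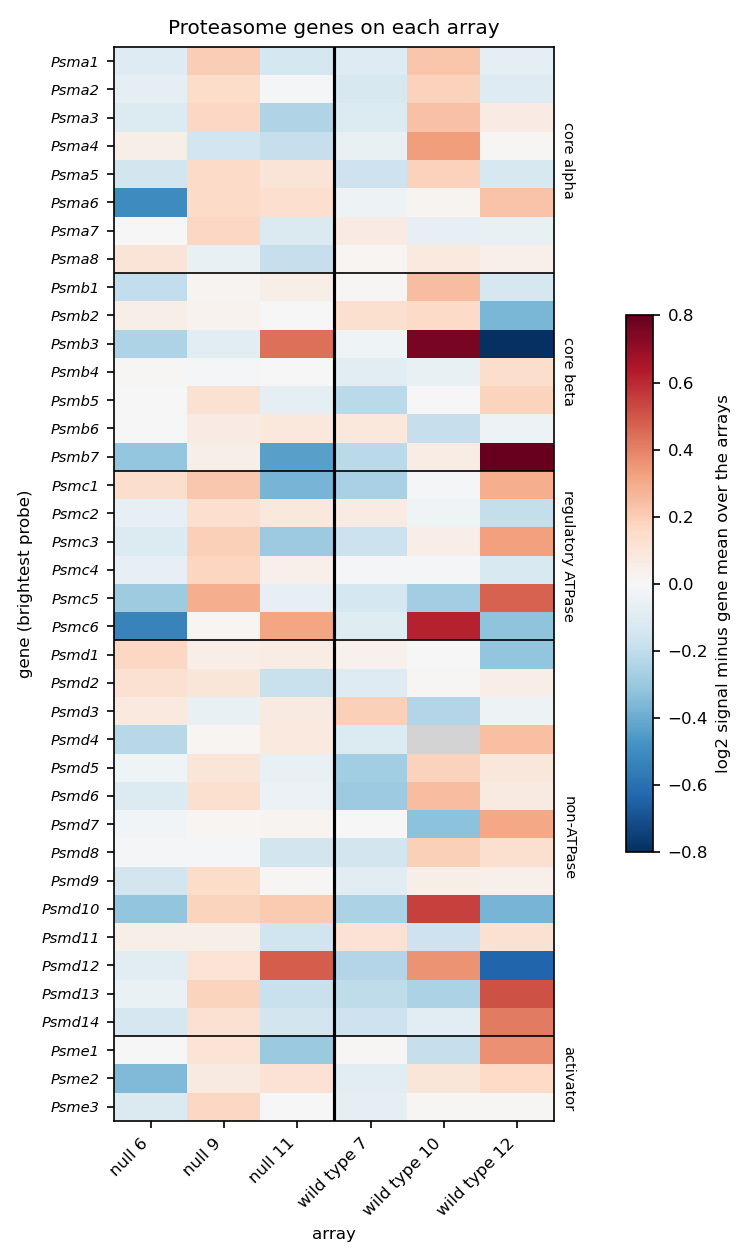
Log2 signal of each tested proteasome gene on each array, minus the gene's mean over the arrays, with classes separated by lines, null arrays on the left and wild-type arrays on the right. The colour scale ends at 0.8 either way and grey is the spot left out of Psmd4; the strongest colours are in wild-type samples 10 and 12 (Psmb3, Psmb7, Psmd12) and not in a whole group.

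**Figure D5:**
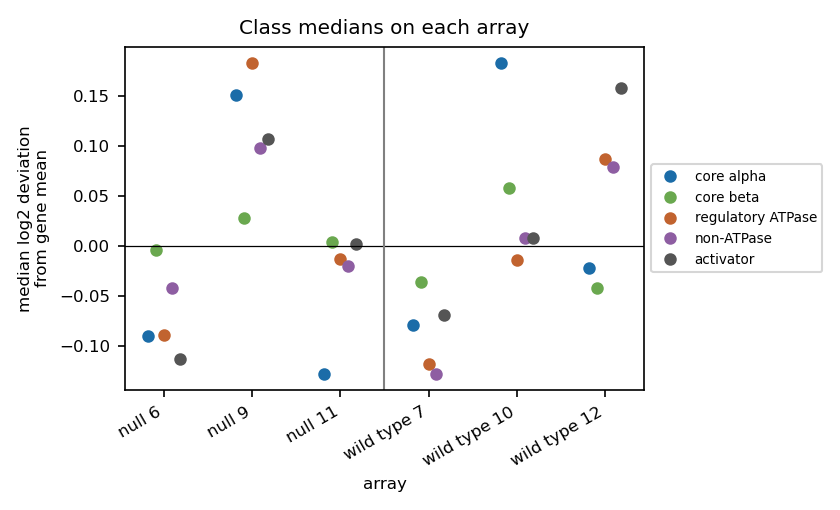
Median over the genes of each class of the log2 deviation from the gene mean, per array, null arrays on the left. Null sample 9 lies above 0 in all 5 classes and wild-type sample 7 below 0 in all 5.

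The lists of genes that assemble or serve the proteasome had medians near 0, while single genes had wide intervals. All 6 assembly factors were tested, 2 higher and 4 lower, with a median log2 difference of -0.03. None passed at an unadjusted p under 0.05. Akirin2, which brings the proteasome into the nucleus, had 0.22 ± 0.13 (SE), the chaperone gene Psmg4 -0.26 ± 0.21 and Psmg2 -0.14 ± 0.15. Of 6 proteasome-associated genes on the array, 5 were tested, 2 higher and 3 lower, with a median of -0.02. Ube3c, a ubiquitin ligase of the particle, had 0.19 ± 0.09 with null wholly above wild type, as had 4.93% of all probes tested. Its signals were 9.74, 9.62 and 9.71 in null samples 6, 9 and 11, and 9.52, 9.51 and 9.47 in wild-type samples 7, 10 and 12 (limma adjusted p = 0.9999).

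The regulators include Nfe2l1, the transcription factor that raises proteasome gene expression when the proteasome is inhibited. Nfe2l1 had 7.55, 7.42 and 7.11 in null samples 6, 9 and 11, and 7.26, 7.17 and 7.46 in wild-type samples 7, 10 and 12. Its difference was 0.07 ± 0.14 (SE) with overlapping groups. The related factor gene Nfe2l2 had 0.23 ± 0.16, and Vcp, whose product extracts ubiquitinated proteins, -0.09 ± 0.16. Of 9 tested genes for ubiquitin, its activation and shuttles, 5 were higher and 4 lower, with a median of 0.02. The shuttle gene Ubqln1 had 0.21 ± 0.12 and the ubiquitin-activating enzyme gene Uba6 0.18 ± 0.17. No gene in these 4 lists passed the adjusted threshold or an unadjusted p of 0.05.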

How the data were processed

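Per the labels' protocols, RNA was amplified to biotin-labelled cRNA for CodeLink mouse arrays read in 1 colour. Spots were quantified with CodeLink Expression Analysis 4.1, per the file headers. The deposited raw intensity was already background-subtracted, since 38 to 67 spots per array were below 0, and the normalized intensity is the raw intensity over the array's median, per the file headers. In the value table deposited by the authors is that normalized intensity times a factor of 1.01 to 1.02 per array, with column medians of 1.003 to 1.009, so its scale is linear and not centred by gene. No genome build is given in the sources used here apart from the RefSeq tables (GRCm38.p6).

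Negative raw intensities were set to 0, and log2 of the intensity plus 50 was quantile normalized. The offset compresses differences of dim probes. On each array 391 to 543 spots carried a flag for irregular shape, contamination or a defect and were dropped. A probe entered the fit if every array of either group put it above background and each group kept at least 2 values. The fit used limma 3.58.1 (lmFit, eBayes; R 4.3.3), null minus wild type. Its two-sided p-values were adjusted by Benjamini-Hochberg across the 21243 probes tested. The fit was also run on simulated data with the same spread for every probe. The changes planted there were larger than any member difference, so that run does not bear on differences of the members' size. The files show no division of the arrays into batches that could be tested. In the platform annotation 21615 spots have a single symbol, 681 have several and 12671 have none. Of the symbols, 21487 matched the RefSeq table, and 499 further spots were named by accession. The probe listed for both Psmb10 and Wdr77 was not counted as a member, and Psme4 was not analysed here.

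Values of every array were given by a rule for Psmc1, for the 2 members of each class with the smallest p, for members without overlap and for the 3 near-background genes. Psma8, Psmb3, Psmb5, Psmd4, Psmd10, Psme3, Nfe2l1, Ube3c, Isg15, Six3 and Ptprc were added after their values were seen. The members, lists and motifs were chosen with earlier results of these data known, so no list was tested as a set. A gene of the interferon list, an anterior brain marker and a motif are not reported here. Class medians use the brightest probe of each gene.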

Additional observations from a re-analysis of the deposited data

How the results depend on the processing

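No proteasome probe passed the adjusted threshold under any alternative, and the smallest adjusted p among them was 0.789, without wild-type sample 10 (it was 0.9577 or more in the others). At an unadjusted p under 0.05, limma counted 1 of 41 member probes (Psmb7) without wild-type sample 7, where 3.37% of all probes passed. It counted 1 of 41 (Psmd12) without wild-type sample 10, where 6.3% of all probes passed. Without the filter on dim probes it counted 1 of 47, a near-background Psmd11 probe, where 3.15% of all probes passed. No member was counted otherwise. Over all probes, 1 passed as analysed; 2 passed with every spot kept, and 0 with subtraction floored at 1, median scaling, cyclic loess, the scanner software's normalized intensity or the authors' value table, and 0 to 1 with an array left out. The Psmc1 log2 difference was 0.038 with median scaling, 0.0527 with the software's normalized intensity, 0.0504 with the authors' value table, and -0.14 to 0.17 with an array left out. With an array left out, Psme1 ranged from -0.25 to 0.0225 and Psme2 from -0.20 to 0.0369. In the same way the class medians ranged from -0.18 to 0.0369 for the activators, -0.12 to 0.0356 for core beta (-0.021 with cyclic loess) and -0.15 to 0.10 for the ATPases, and those of the other classes moved by less than the spread between arrays. The causes were not tested. Fkbp8 kept its direction under every alternative, at -2.37 with an offset of 16, -2.89 with subtraction floored at 1, the software's normalized intensity or the authors' value table, and -1.98 to -1.47 with an array left out. Leaving Psma8 out of the alpha and overall medians was added after seeing the data. No paired analysis was possible because null and wild-type samples carry different numbers. Groups of 3 are too small for a test of outlying arrays.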
